A study of Mus musculus with 43 samples.

Results

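The comparison of 10 µM with 4 µM regorafenib was made in primary mouse colon fibroblasts, over 6 of the 43 libraries of the series. Regorafenib is an oral inhibitor of several kinases, used in advanced colorectal cancer, and the study included fibroblasts to examine how the stroma of the colon responds to it. Members were chosen by library name, as the 3 fibroblast libraries with 10 µM regorafenib (R10) and the libraries with 4 µM regorafenib alone (R4) of the same lines, M3, M3(2) and M1(2). Each line was grown from the colon of an individual wild-type C57B/6 mouse, from the tissue left after removal of the crypts, and cultured for 7 days with the drug. Lines M3 and M3(2) came from male mice 2 months old, and the age of the mouse behind line M1(2) is not given in the sources used here. All libraries share the vehicle, 0.5% DMSO, which was also given alone (Ve). The same lines were further cultured with 1 µM autogramin-2, an inhibitor of autophagosome formation that binds the cholesterol transfer protein Gramd1a, alone or with 4 µM regorafenib, and these libraries served here to estimate the spread.

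Regorafenib blocks the receptors of the VEGF, PDGF and FGF families, the angiopoietin receptor Tie2 and several kinases inside the cell. Colon fibroblasts depend on PDGF and FGF receptors for growth, build and remodel the collagenous matrix, and supply the crypts with Wnt and BMP modulators such as Grem1. Lymphatic and blood endothelial cells, which share the colon wall with fibroblasts, depend in turn on VEGF receptors, lymphatic cells on VEGFR3, encoded by Flt4. Cells that leave the cycle lose the transcripts of DNA replication and mitosis, many of which are held silent in resting cells through shared promoter elements.

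Values are CP20M, read counts per gene scaled so that each library sums to 20000000, and 20 CP20M is thus 1 CPM. They are not divided by transcript length, so that levels are compared between libraries and not between genes, and the most abundant gene of a list is the one with the most reads. The R4 libraries held 10319765, 9039204 and 8795373 counted reads and the R10 libraries 11588458, 8584381 and 9884549, in the order M3, M3(2) and M1(2), which is kept for every set of 3 values below. Of 52636 genes, 10208 reached 200 CP20M in at least 2 of the 6 libraries and were tested. The fold change is the mean of the 3 within-line differences on log2(CP20M + 20), and understates the change of low genes. It was tested with limma with line as a block, in a fit over the 15 libraries of the 3 lines, and adjusted p-values are by Benjamini and Hochberg, over the 10208 genes. A gene was called at an adjusted p under 0.05 with a difference of at least 1.5-fold in either direction.

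In all, 440 of 10208 genes were called (4.31%), 338 lower (3.31%) and 102 higher (0.999%) at 10 µM. The median fall among the called genes was −0.95 and the median rise 0.72 on the log2 scale, and 150 genes fell and 19 rose by at least 1. The filter on low values bears on both counts, since 147 of the 338 falls passed it only through the 4 µM libraries and 22 of the 102 rises only through the 10 µM libraries. Of the 440 genes 413 encode proteins and 427 moved in 1 direction in all 3 lines, as did 4183 of the 10208 tested. Over the 10208 genes the median was −0.02. When the fold threshold was left out, 1327 genes passed (13.0%), 742 lower and 585 higher. Without the block of line 42 genes were called, 22 lower and 20 higher. The libraries of the doses did not overlap for 833 genes lower at 10 µM (8.16%) and 851 higher (8.34%). With the block but over the 6 libraries alone, where the other 9 do not add to the estimate of the spread, the number was 155, of which 98 were lower. Without line M3(2) 180 genes were called and without line M1(2) 163, against 539 without line M3. Where the count of a list moved by over 1.5 times when a line was left out, the numbers of its genes called without M3, without M3(2) and without M1(2) are given in this order.

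**Figure D1:**
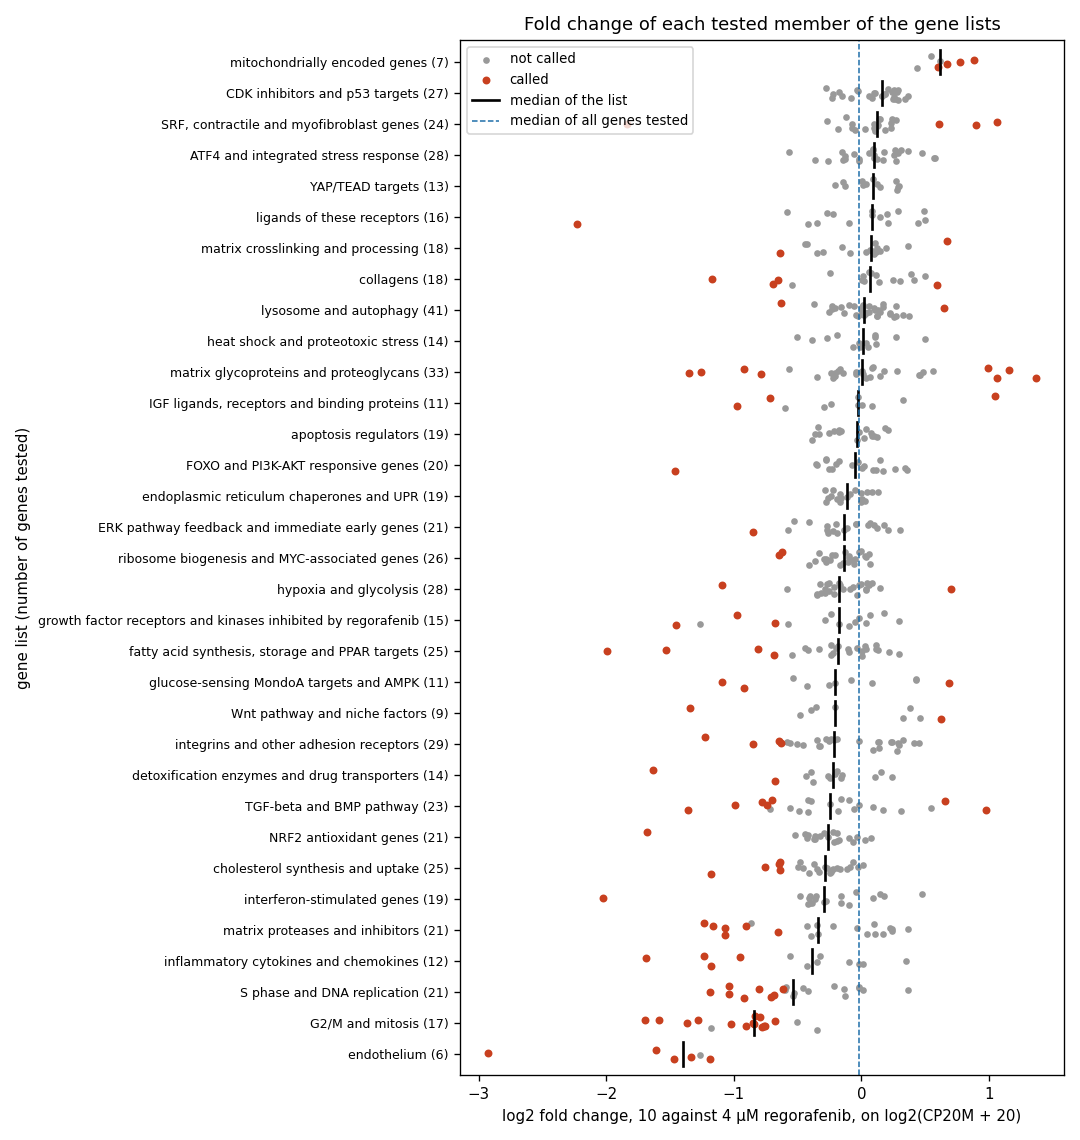
The log2 fold change of 10 against 4 µM regorafenib (x axis, on log2(CP20M + 20)) is shown for each tested gene of 32 pathway lists and of the endothelial marker list (y axis, with the number of genes tested), called genes in red, others in grey, list medians as black bars and the median of all genes, −0.02, as a dashed line. The endothelial markers and the lists of mitosis and DNA replication have the lowest medians, −1.40, −0.84 and −0.54, and the mitochondrially encoded genes the highest, 0.62.

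The fibroblast markers were measurable in all 6 libraries, some at low levels. Col1a1, the chain of type I collagen that was the most abundant fibroblast marker, stood at 112153, 76284 and 70401 CP20M at 4 µM and 87934, 80207 and 85918 CP20M at 10 µM, with a log2 fold change of 0.00 ± 0.11 (SE). Over the 10 fibroblast markers the summed level was 235991, 171591 and 173808 CP20M at 4 µM and 180632, 175396 and 183642 CP20M at 10 µM. Of 9 tested, Lum, Col3a1 and Pdgfra fell (against 3.31% of all genes, with falls 0, 3 and 3 without a line) and none rose, with a median of −0.10 on the log2 scale. Lum lay between 88 and 347 CP20M and Pdgfra between 152 and 1156. Fbln1, which was not tested, lay between 82 and 205 CP20M. The study tells apart colonic fibroblast subtypes by lists of markers. The most abundant within the lists of crypt subtype 2, top fibroblasts and crypt subtype 1 were Grem1, Tnc and Sfrp1, none of them called. Grem1, a secreted BMP antagonist of the crypt subtype 2, was measured at 50385, 48834 and 54026 CP20M at 4 µM and 37985, 55646 and 51430 CP20M at 10 µM, and Tnc, the matrix glycoprotein tenascin C of top fibroblasts, at 95816, 71500 and 69744 CP20M at 4 µM and 95457, 76074 and 88963 CP20M at 10 µM. Sfrp1, a secreted Wnt antagonist of the crypt subtype 1, had 2545, 1897 and 8394 CP20M at 4 µM and 3138, 2556 and 9961 CP20M at 10 µM. The lists of crypt subtypes 1 and 2 and of top fibroblasts held 4, 5 and 3 tested genes, with Cd34 and Thy1 in both crypt lists. Of these genes Cd34 and Procr fell and none rose, against 3.31% lower and 0.999% higher of all genes. Cd34, a sialomucin that the study counts among the markers of both crypt subtypes, went from 1491, 2074 and 2106 to 808, 1322 and 1318 CP20M (log2 fold change −0.73, SE 0.12, adjusted p = 0.00332). Procr, the endothelial protein C receptor and a marker of top fibroblasts, went from 830, 3616 and 1190 to 720, 1142 and 684 CP20M (log2 fold change −0.88, SE 0.22, adjusted p = 0.0213). It was not called without M3(2) or without M1(2). Both were named after their values were seen. The medians of the 3 lists were 0.18 for crypt subtype 1 (4 genes), −0.10 for crypt subtype 2 (5 genes) and 0.15 for top fibroblasts (3 genes), and apart from Cd34 and Procr the fold changes lay above 0 except for Grem1 and Rspo3.

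Markers of other cell types were present to different degrees. Of the lymphocyte markers, Cd3e, Cd3d and Ms4a1 were at 0 in all 6 libraries, where a count of 0 allows a level of up to 6.99 CP20M by counting error alone, and the most abundant, Ptprc, did not exceed 16 CP20M. The macrophage list summed to 1232, 792 and 1039 CP20M at 4 µM and to 662, 634 and 644 CP20M at 10 µM. Its most abundant gene was Lyz2, the lysozyme of myeloid cells, which fell from 712, 335 and 594 to 240, 217 and 268 CP20M (log2 fold change −1.06, SE 0.24, adjusted p = 0.0146) and was called without M3(2) but not without M3 or M1(2). No marker of this list was at 0 in all 6 libraries, although C1qa was at 0 in all 3 libraries with 10 µM. Of the epithelial list only Krt19 was tested, at 772, 728 and 574 CP20M at 4 µM and 632, 539 and 521 CP20M at 10 µM, while Epcam and Krt8 reached no more than 3 CP20M. Krt19 is also the most abundant gene of the mesothelial list. Glial and neuronal markers were measurable, most in line M1(2), where the list summed to 8935 CP20M at 4 µM and 7021 at 10 µM, against 3017 and 2649 in M3 and 1784 and 1693 in M3(2). None of its 4 tested members was called, against 4.31% of all genes. The most abundant, Tubb3, had 1545, 744 and 2702 CP20M at 4 µM and 967, 609 and 2014 CP20M at 10 µM. The part of macrophages, epithelium and glia in the changes described was not tested.

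Endothelial genes were among the largest falls. Of the 8 endothelial markers 6 were tested, 1 of which passed the filter on low values only through the 4 µM libraries. That gene was Cldn5. Among the 6, 5 fell (Cldn5, Tie1, Pecam1, Cdh5 and Emcn) and none rose, with a median of −1.40 on the log2 scale, against 338 lower genes of 10208 (3.31%) and a median of −0.02 overall. The list summed to 2120, 33446 and 8116 CP20M at 4 µM and to 1747, 7455 and 2100 CP20M at 10 µM, and none of its members was at 0 in all 6 libraries. The lines therefore differed widely in endothelial transcripts at 4 µM, with M3(2) the highest and M3 the lowest. With vehicle the sums were 1329, 12475 and 2413 CP20M, lower than with 4 µM in each line. In a bulk sample, fewer cells of a type and less RNA per cell cannot be told apart.

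Cdh5, the cadherin of endothelial junctions and the most abundant of these markers, was measured at 483, 3486 and 778 CP20M with vehicle, 659, 8922 and 2013 at 4 µM and 529, 2144 and 628 at 10 µM (log2 fold change −1.33, SE 0.28, adjusted p = 0.00968, for 10 against 4 µM). Pecam1, an adhesion molecule of endothelial junctions, went from 471, 7238 and 1822 to 372, 1748 and 425 CP20M (log2 fold change −1.47, SE 0.29, adjusted p = 0.00657). Both were lower at 10 µM in all 3 lines, by little in M3, and the ranges of the doses overlapped because M3 was low at either dose. Kdr, the VEGF receptor 2, was not called (log2 fold change −1.26, SE 0.40, adjusted p = 0.0543, 95% interval −2.13 to −0.40), with 183, 3866 and 999 CP20M at 4 µM and 256, 678 and 282 CP20M at 10 µM, lower at 10 µM in M3(2) and M1(2) and higher in M3.

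Prox1, Sox18, Lyve1 and Reln, known from lymphatic endothelium, come from no fixed list, and of these Prox1 and Sox18 were called. Flt4 and Stab1, given below, were called lower as well. Prox1, the transcription factor that sets lymphatic identity, was measured at 113, 2899 and 468 CP20M with vehicle, 181, 9090 and 1963 at 4 µM and 196, 1191 and 411 at 10 µM (log2 fold change −1.67, SE 0.48, adjusted p = 0.037). It was lower at 10 µM in M3(2) and M1(2) and near its 4 µM level in M3. It overlaps Prox1os on the other strand. Sox18, a transcription factor that acts before Prox1 in lymphatic development, went from 37, 1543 and 410 to 30, 189 and 37 CP20M (4.01-fold lower, adjusted p = 0.0135). Sox18 passed the filter on low values only through the 4 µM libraries. Lyve1, a hyaluronan receptor of lymphatic vessels, did not pass the filter on low values and had 28, 107 and 96 CP20M at 4 µM and 21, 24 and 9 CP20M at 10 µM, and Reln, the secreted glycoprotein reelin, stood at 173, 226 and 1085 CP20M at 4 µM and 254, 75 and 960 CP20M at 10 µM and was not called. Kdr, Prox1, Sox18, Lyve1 and Reln, and the markers Pecam1, Tie1 and Emcn, were chosen for naming after their values were seen.

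Among protein-coding genes lower in all 3 lines, the 12 with the largest falls were Mmrn1, Scn3a, Cldn5, Stab1, Fxyd6, Slco4a1, Lbp, Dusp2, Prom1, Plvap, Ednrb and Angpt2, with log2 fold changes from −3.70 to −2.23. All but Stab1, Plvap and Angpt2 passed the filter only through the 4 µM libraries. Mmrn1 (ENSMUSG00000054641, chr6:60924976-60989378 in GRCm38), which encodes the secreted glycoprotein multimerin 1 of platelets and endothelium, was measured at 36, 591 and 120 CP20M with vehicle, 82, 1662 and 655 at 4 µM and 26, 17 and 11 at 10 µM (log2 fold change −3.70, SE 0.64, adjusted p = 0.00374). All 3 libraries with 10 µM lay below all 3 with 4 µM. Stab1, a scavenger receptor of sinusoidal and lymphatic endothelium, went from 710, 23277 and 5010 to 389, 1596 and 545 CP20M (log2 fold change −2.61, SE 0.49, adjusted p = 0.00551). Plvap, which forms the diaphragms of fenestrated endothelium, went from 458, 6032 and 1363 to 183, 713 and 201 CP20M (log2 fold change −2.31, SE 0.32, adjusted p = 0.00128). In both, the range at 10 µM reached into that at 4 µM through line M3. Cldn5, the tight junction protein claudin 5, went from 57, 2218 and 821 to 23, 101 and 43 CP20M, Ednrb, the endothelin receptor B, from 49, 2063 and 651 to 32, 103 and 108 CP20M, and Prom1, prominin 1, from 94, 2129 and 808 to 66, 236 and 53 CP20M. These 3 genes too were highest in M3(2) at 4 µM and overlapped between the doses through M3. Scn3a, a voltage-gated sodium channel, went from 115, 1032 and 435 to 35, 26 and 11 CP20M, and Fxyd6, a regulator of the sodium pump, from 35, 711 and 210 to 4, 28 and 17 CP20M, both without overlap. Slco4a1, an organic anion transporter, went from 82, 1043 and 307 to 18, 80 and 27 CP20M (log2 fold change −2.54, SE 0.32, adjusted p = 0.000773), with no overlap between the doses. The smallest fold among the 12, that of Angpt2, a ligand of the endothelial receptor Tie2, was from 687, 12701 and 3978 to 346, 1834 and 490 CP20M (log2 fold change −2.23, SE 0.37, adjusted p = 0.00312). Several of these genes overlap a gene on the other strand (Stab1 with Nt5dc2, Scn3a with Gm13595, Prom1 with Gm16401, Plvap with Gtpbp3 and Angpt2 with Mcph1), and whether reads were counted by strand is not given in the sources used here.

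**Figure D2:**
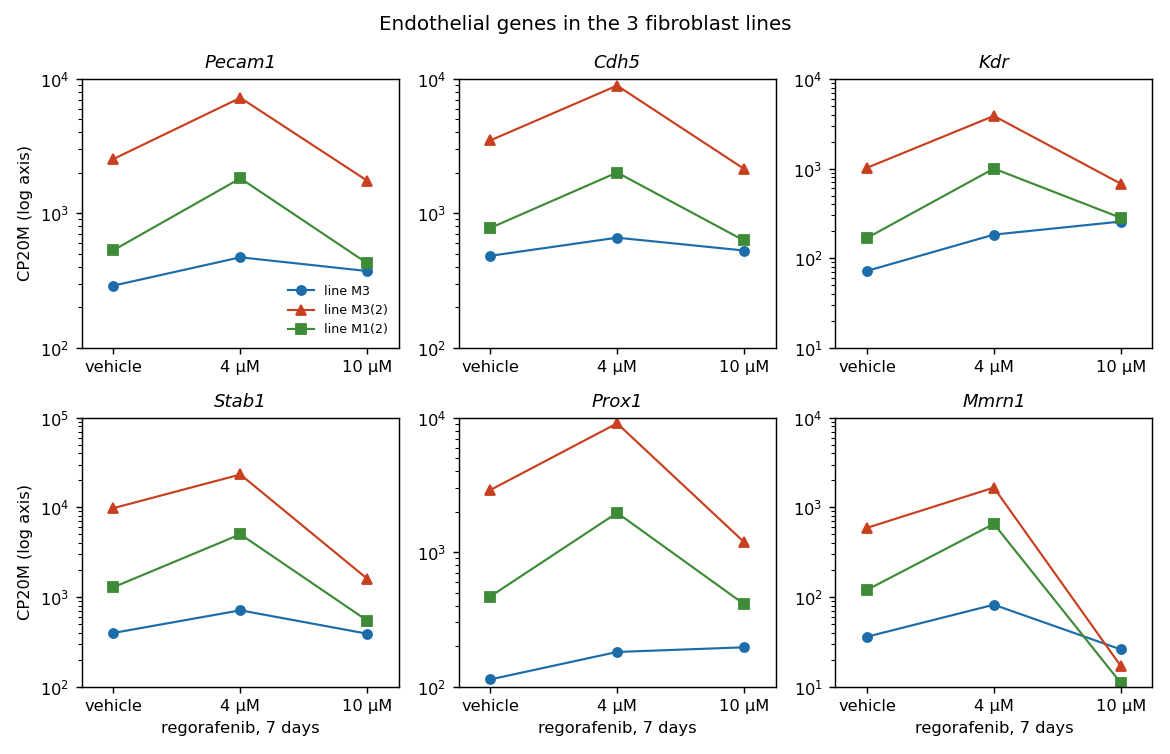
Levels of 6 endothelial genes in CP20M (y axis, log scale) in each of the 3 lines (colours) with vehicle, 4 µM and 10 µM regorafenib (x axis). Line M3(2) is the highest and M3 the lowest at 4 µM in every panel, and in M3(2) and M1(2) each gene is lower at 10 µM than at 4 µM, Stab1 from 23277 to 1596 and from 5010 to 545.

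The extent of this group was described over 9 libraries that lie outside the comparison, those with vehicle, autogramin-2, or both agents. Over these, 207 of 10208 genes (2.03%) followed the mean log2 level of the 6 tested endothelial markers with a Pearson r of at least 0.9. Of the 338 genes lower at 10 µM, 85 were among them, or 25.1% of the falls and 41.1% of the followers. These numbers include the 6 markers that define the profile, 5 of them called lower. Without them they were 201 followers and 80 of the falls. Of the 102 genes higher at 10 µM, 0 were among them. The limit of 0.9 was chosen after the values were seen, and at 0.8 the numbers, markers included, were 436 followers, 111 of the falls and 4 of the rises. The points share the 3 lines, which differ in endothelial level. Of the 338 falls, 147 passed the filter on low values only through the 4 µM libraries, and how many of the 85 did is not given here. The filter and the profile can thus both favour genes high in the lines rich in endothelial transcripts, and the values are a description. With the 207 genes left out, 355 genes were called, 253 lower and 102 higher. With the 436 left out 325 were called, of which 227 were lower. The endothelial calls depended on the lines with high levels. Of the 6 tested markers 0 were called without line M3(2), 0 without M1(2) and 1 over the 6 libraries alone, while all 6 were called without M3. The list median was −1.08 without M3(2), −1.18 without M1(2) and −2.08 without M3, against −1.40 with all 3 lines. The median log2 fold change of the list within each line was −0.32 in M3, −2.21 in M3(2) and −1.90 in M1(2).

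Transcripts of the cell cycle formed the other large group of falls. Of 40 listed genes of G2/M and mitosis 17 were tested, of which 14 fell and none rose, with a median of −0.84. Of 35 listed genes of S phase and DNA replication 21 were tested, of which 8 fell and none rose, with a median of −0.54. Over all genes tested 3.31% fell and 0.999% rose, with a median of −0.02. The filter on low values bears on these counts, since 10 of the 17 and 8 of the 21 passed it only through the 4 µM libraries. Of the 7 and 13 that passed it in the 10 µM libraries alone, 5 and 3 fell. In a fit with no filter, added after the data were seen, 27 of all 40 and 11 of all 35 were called lower and none higher, with medians of −0.86 and −0.58. Over the 26498 genes of that fit 607 were called lower and 139 higher, with a median of −0.02. No tested member of the mitosis list had a fold change above 0. The largest falls in mitosis were those of Cenpf, Mki67, Top2a and Cdc20, and in DNA replication those of Mcm5, Mcm6, Uhrf1 and Pole.

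The promoters of Cenpf, Mki67, Top2a and Cdc20 are shown because the mitosis list moved together and its genes are known for shared promoter elements. The 250 bases before the start are printed 5′ to 3′ on the strand of the gene, from RefSeq on GRCm38.p6, with CCAAT and TTTGAA, or their reverse complements ATTGG and TTCAAA, in capitals. CCAAT is bound by the factor NF-Y, and TTTGAA is the core of the cell cycle homology region, to which the complex that silences mitotic genes in resting cells binds.
Cenpf (chr1:189688087-189688336, minus strand): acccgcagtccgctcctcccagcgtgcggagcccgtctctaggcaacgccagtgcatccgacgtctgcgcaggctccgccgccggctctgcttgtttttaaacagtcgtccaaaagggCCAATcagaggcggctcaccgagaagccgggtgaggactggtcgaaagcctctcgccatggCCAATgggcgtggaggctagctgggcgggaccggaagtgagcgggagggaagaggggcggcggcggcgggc
Mki67 (chr7:135716380-135716629, minus strand): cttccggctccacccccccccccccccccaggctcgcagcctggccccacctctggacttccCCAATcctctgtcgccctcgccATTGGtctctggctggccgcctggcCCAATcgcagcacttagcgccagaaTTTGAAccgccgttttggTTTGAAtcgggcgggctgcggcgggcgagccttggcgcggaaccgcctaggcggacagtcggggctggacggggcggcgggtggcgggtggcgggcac
Top2a (chr11:99024190-99024439, minus strand): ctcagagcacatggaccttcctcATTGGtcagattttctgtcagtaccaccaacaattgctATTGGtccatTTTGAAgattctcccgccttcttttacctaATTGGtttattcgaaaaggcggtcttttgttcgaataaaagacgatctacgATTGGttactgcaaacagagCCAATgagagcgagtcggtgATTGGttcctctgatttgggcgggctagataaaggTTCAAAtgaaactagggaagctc
Cdc20 (chr4:118437344-118437593, minus strand): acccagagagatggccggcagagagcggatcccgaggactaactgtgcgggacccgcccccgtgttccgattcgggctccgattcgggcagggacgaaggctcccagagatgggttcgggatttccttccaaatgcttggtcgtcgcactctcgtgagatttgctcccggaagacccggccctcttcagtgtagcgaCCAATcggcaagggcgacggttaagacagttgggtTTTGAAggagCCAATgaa

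CCAAT was found on either strand in 10 of 11 promoters of the genes of the mitosis list that fell (90.9%, from 10 of the 14 genes), in 34.1% of the 9859 promoters of genes tested and in 33.8% of all 32851 promoters. The share was about as high over all tested genes of the list, called or not, with CCAAT in 11 of 13 promoters (84.6%) and TTTGAA in 6 (46.2%). TTTGAA was found in 5 of the 11 (45.5%), against 9.83% and 16.0%. Both were in 5 of the 11, against 3.41% and 5.55%. In the 9 promoters of replication genes that fell, CCAAT was in 7, TTTGAA in 1 and both in 0. Cenpf had 2 matches to CCAAT and 0 to TTTGAA, whereas Mki67, Top2a and Cdc20 had both. Among all genes that fell, CCAAT was in 32.4% of 312 promoters and TTTGAA in 47 of them, and among all that rose CCAAT was in 28.0% of 93 and TTTGAA in 14 of them. The letters CACGTG, an E-box, were in 6.09% of the promoters of genes that fell and 6.45% of those that rose, against 8.84% of those tested, and TCACNCCAC, the sterol response element, in 0.641% and 0%, against 1.03%. Matches are letters in a window and not shown to be sites.

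Mki67, which encodes the proliferation antigen Ki-67, was measured at 2310, 1681 and 1328 CP20M with vehicle, 535, 2164 and 790 at 4 µM and 282, 308 and 344 at 10 µM (log2 fold change −1.59, SE 0.36, adjusted p = 0.0134, for 10 against 4 µM). The 3 libraries with 10 µM lay below all 3 with 4 µM and close to each other, and the line with the most at 4 µM was M3(2). Cenpf, a kinetochore protein, went from 181, 724 and 248 to 75, 87 and 96 CP20M (log2 fold change −1.70, SE 0.31, adjusted p = 0.00494). Top2a, the topoisomerase of dividing cells, went from 466, 1786 and 812 to 271, 383 and 344 CP20M (log2 fold change −1.37, SE 0.30, adjusted p = 0.0126), and Cdc20, an activator of the anaphase-promoting complex, from 165, 445 and 248 to 80, 138 and 81 CP20M (log2 fold change −1.28, SE 0.27, adjusted p = 0.0101). In all 4 genes the ranges of the doses did not overlap, which holds for 8.16% of all genes tested in that direction. Of the 4, Cenpf and Cdc20 passed the filter on low values only through the 4 µM libraries. Ccnb1, the mitotic cyclin B1, did not pass the filter on low values, with 126, 306 and 157 CP20M at 4 µM and 52, 70 and 77 CP20M at 10 µM. Cenpf overlaps Gm37239, Mki67 Gm45240, Top2a Gm26394 and Cdc20 Elovl1 on the other strand.

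Mcm5, a subunit of the replicative helicase, went from 163, 476 and 292 to 125, 124 and 94 CP20M (log2 fold change −1.19, SE 0.24, adjusted p = 0.00798). Uhrf1, which maintains DNA methylation at replication, went from 210, 501 and 262 to 128, 152 and 134 CP20M (log2 fold change −1.04, SE 0.19, adjusted p = 0.00551). Mcm6, another subunit of that helicase, fell by 1.04 and Pole, the catalytic subunit of DNA polymerase epsilon, by 0.92 on the log2 scale. Mcm5, Uhrf1 and Pole passed the filter on low values only through the 4 µM libraries. Replication-dependent histone genes, a group chosen after the values were seen, were called in 13 of 20 tested, all lower, against 3.31% of all genes. Of the 13, 11 passed the filter on low values only through the 4 µM libraries, and 15, 0 and 0 of the 20 were called without M3, M3(2) and M1(2), and 1 over the 6 libraries alone. The histone median was −1.31 without M3, −0.78 without M3(2) and −0.80 without M1(2), against −0.98 with all 3 lines. The median of the mitosis list was −0.36 in M3, −1.37 in M3(2) and −0.92 in M1(2), and that of the replication list −0.14, −0.86 and −0.47. M3, which had the highest level of Mki67 and Top2a with vehicle, had the lowest level of Mki67, Cenpf, Top2a, Cdc20 and Mcm5 of the 3 lines at 4 µM. Of the 14 called genes of mitosis, the count fell to 2 without M3(2), to 0 without M1(2) and to 2 over the 6 libraries alone, and was 16 without M3. Of the 8 of DNA replication, the count was 2 without M3(2), 0 without M1(2) and 0 over the 6 libraries alone, and 12 without M3. The mitosis median was −0.65 without M3(2), −0.84 without M1(2) and −1.13 without M3, against −0.84 with all 3 lines. The replication median was −0.36, −0.48 and −0.74 in these fits, against −0.54. None of the 38 tested genes of these lists followed the endothelial markers at an r of 0.9.

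Inhibitors of the cycle and targets of p53 were not called. Of 27 tested, 0 rose and 0 fell, against 0.999% higher and 3.31% lower of all genes. A count of 0 in 27 lies near these shares. The median was 0.16, with fold changes between −0.28 and 0.37 on the log2 scale. Cdkn1a, the CDK inhibitor p21, was measured at 12433, 9716 and 9023 CP20M at 4 µM and 13932, 14252 and 9413 CP20M at 10 µM (log2 fold change 0.26, SE 0.12, adjusted p = 0.165, 95% interval 0.00 to 0.51). It was higher at 10 µM in all 3 lines, by most in M3(2). By adjusted p alone 4 of the 27 were higher and 1 lower, against 5.73% and 7.27% of all genes. Ccng1, Mdm2 and Zmat3, other targets of p53, had log2 fold changes of 0.16 ± 0.10, 0.10 ± 0.12 and 0.25 ± 0.07 (SE).

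**Figure D3:**
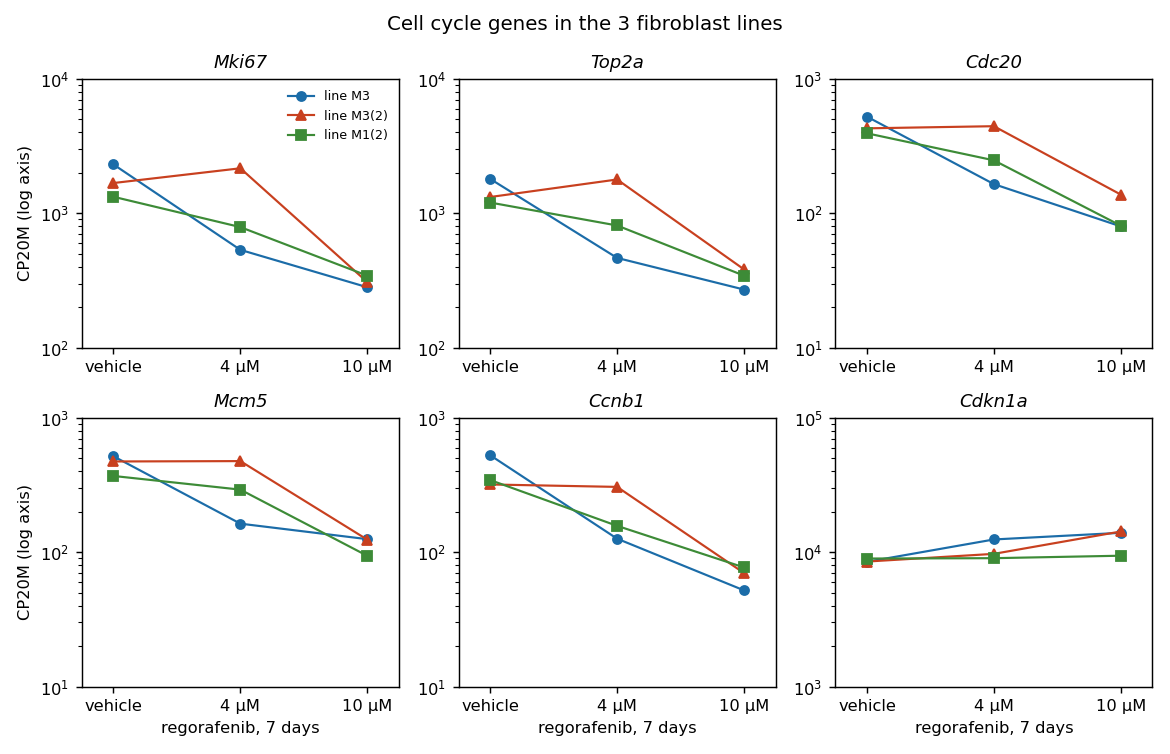
Levels of 5 genes of mitosis and DNA replication and of Cdkn1a in CP20M (y axis, log scale) in each of the 3 lines (colours) with vehicle, 4 µM and 10 µM regorafenib (x axis). For Mki67 the 3 lines lie between 282 and 344 at 10 µM and span 535 to 2164 at 4 µM, and Cdkn1a lies between 9413 and 14252 at 10 µM and between 9023 and 12433 at 4 µM.

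Among the kinases that regorafenib inhibits, 3 of 15 tested fell (Flt4, Mapk11 and Pdgfra) and none rose, with a median of −0.18, against 3.31% lower and 0.999% higher of all genes. The count was 3, 1 and 0 with a line left out and 0 over the 6 libraries alone. Flt4 and Mapk11 were called without M3 but not without M3(2) or M1(2), and Pdgfra without M3(2) but not without M3 or M1(2). Of the 15 genes, 3 followed the endothelial markers at an r of 0.9, and Mapk11 passed the filter only through the 4 µM libraries. Pdgfra, the PDGF receptor alpha and a general marker of fibroblasts, was measured at 4877, 2606 and 1645 CP20M with vehicle, 1156, 383 and 196 at 4 µM and 429, 303 and 152 at 10 µM. Its log2 fold change was −0.68 ± 0.16 (SE, adjusted p = 0.018) for 10 against 4 µM and −2.57 ± 0.16 (SE) for 4 µM against vehicle, and the difference between the steps was 1.89 ± 0.28 (SE, adjusted p = 0.00728). Most of the decrease of Pdgfra thus lay below 4 µM, with a further fall, chiefly in M3, to 10 µM. Flt4, the VEGF receptor 3, was measured at 1028, 3122 and 1226 CP20M with vehicle, 776, 5806 and 1776 at 4 µM and 548, 1175 and 575 at 10 µM (log2 fold change −1.46, SE 0.26, adjusted p = 0.00449), and was, as the endothelial markers were, highest in M3(2). Mapk11, the p38 beta kinase, went from 97, 359 and 223 to 66, 82 and 142 CP20M (log2 fold change −0.97, SE 0.23, adjusted p = 0.016).

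The other targets named for these fibroblasts moved little. Fgfr1, the FGF receptor 1, had 4991, 4291 and 5060 CP20M at 4 µM and 3896, 3654 and 4177 CP20M at 10 µM, below the fold threshold (log2 fold change −0.29, SE 0.08, adjusted p = 0.0291). Pdgfrb, the PDGF receptor beta, had 7297, 4317 and 4835 CP20M at 4 µM and 5592, 4241 and 5217 CP20M at 10 µM (95% interval −0.28 to 0.08 of the log2 fold change). It was not called. This interval lay within the fold threshold, but its spread was pooled over the 5 treatments and not taken from the 3 within-line differences alone. Ddr2, a collagen receptor kinase and the most abundant of the list that was not called, had 9328, 8112 and 9528 CP20M at 4 µM and 10214, 9380 and 10912 CP20M at 10 µM.

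Of 16 tested ligands of these receptors, Angpt2 fell (against 3.31% of all genes, with falls 1, 2 and 1 without a line) and none rose, with a median of 0.09. Angpt2 was also the 1 gene of this list that followed the endothelial markers at an r of 0.9. Fgf10, a growth factor of the mesenchyme, was higher in each line at 10 µM but below the fold threshold, with 3266, 3585 and 2932 CP20M at 4 µM and 4063, 6389 and 3715 CP20M at 10 µM (log2 fold change 0.49, SE 0.15, adjusted p = 0.0464). Csf1, the growth factor of macrophages, and Fgf2, the basic FGF, were not called, with log2 fold changes of −0.10 ± 0.09 and −0.22 ± 0.08 (SE). Among 21 genes of ERK feedback and immediate early response, Dusp6 fell (against 3.31% of all genes, with falls 2, 0 and 1 without a line) and none rose, with a median of −0.14. Dusp6, the phosphatase that dephosphorylates ERK, went from 743, 2479 and 1601 to 613, 883 and 905 CP20M (log2 fold change −0.85, SE 0.21, adjusted p = 0.0204), most in M3(2). Dusp4, Ccnd1 and Spred1 were not called, with log2 fold changes of 0.05 ± 0.07, −0.14 ± 0.10 and −0.22 ± 0.07 (SE).

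**Figure D4:**
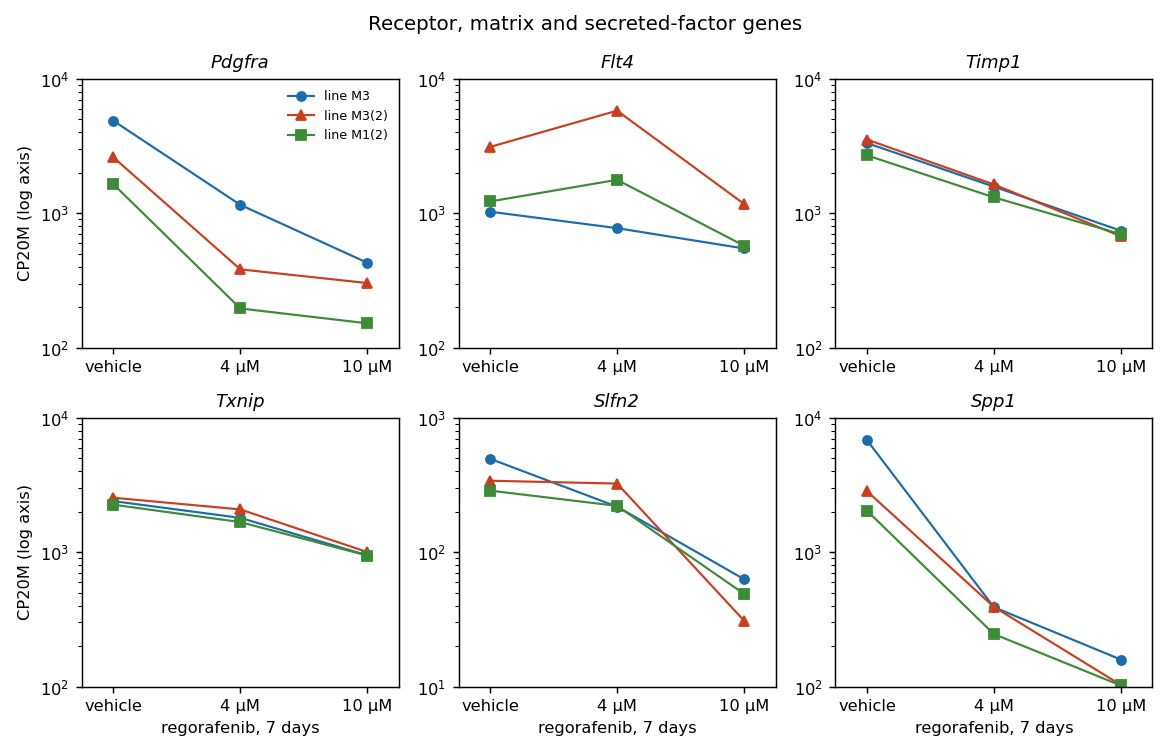
Levels of 2 receptor genes and 4 further genes that fell, in CP20M (y axis, log scale), in each of the 3 lines (colours) with vehicle, 4 µM and 10 µM regorafenib (x axis). Timp1, Txnip, Slfn2 and Spp1 are lower at 10 µM than at 4 µM in all 3 lines with no overlap between the doses, Txnip from 1674 to 2080 down to 943 to 1002.

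Among protein-coding genes higher in all 3 lines, the 12 with the largest rises were AI593442, Galnt16, Slc1a6, Lrrn1, Nov, Smoc2, Maob, Nid2, Gpr137c, Agtr1a, Ptprz1 and Tenm1, with log2 fold changes from 2.37 down to 1.17. In 11 of them all 3 libraries with 10 µM lay above all 3 with 4 µM, the exception being Nov, and this holds for 8.34% of all genes tested. AI593442, Lrrn1 and Tenm1 passed the filter only through the 10 µM libraries. Galnt16 (ENSMUSG00000021130, chr12:80518277-80630972 in GRCm38), an enzyme that starts O-linked glycans on serine and threonine, was measured at 15, 19 and 40 CP20M with vehicle, 607, 638 and 260 at 4 µM and 2189, 3074 and 1109 at 10 µM (log2 fold change 2.02, SE 0.37, adjusted p = 0.00482). Slc1a6, a glutamate transporter best known from the cerebellum, was measured at 58, 43 and 34 CP20M with vehicle, 764, 284 and 282 at 4 µM and 1927, 1380 and 1136 at 10 µM (log2 fold change 1.82, SE 0.22, adjusted p = 0.000455). Both had at most 58 CP20M with vehicle and were higher at each dose in every line.

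Maob, the monoamine oxidase B of the outer mitochondrial membrane, was measured at 58, 60 and 80 CP20M with vehicle, 223, 266 and 257 at 4 µM and 800, 800 and 656 at 10 µM (log2 fold change 1.52, SE 0.15, adjusted p = 0.000172). The 3 lines lay close together at each dose. Agtr1a, the angiotensin II receptor type 1, went from 411, 370 and 342 to 808, 979 and 1012 CP20M (log2 fold change 1.27, SE 0.16, adjusted p = 0.00079), and Ptprz1, a receptor tyrosine phosphatase, from 4824, 3547 and 2218 to 9822, 8441 and 6081 CP20M (log2 fold change 1.24, SE 0.18, adjusted p = 0.00142). Lrrn1, a membrane protein with leucine-rich repeats, rose from 76, 47 and 85 to 313, 213 and 308 CP20M, and AI593442 from 37, 54 and 26 to 384, 285 and 199 CP20M. Gpr137c, an orphan receptor, rose from 78, 211 and 210 to 315, 525 and 395 CP20M, and Tenm1, a teneurin of the cell surface, from 59, 107 and 112 to 173, 296 and 229 CP20M. Galnt16, Smoc2, Nid2, Gpr137c and Tenm1 overlap genes on the other strand (among them 4933406B15Rik, 4930474M22Rik, Rtraf, Txndc16 and Sh2d1a).

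**Figure D5:**
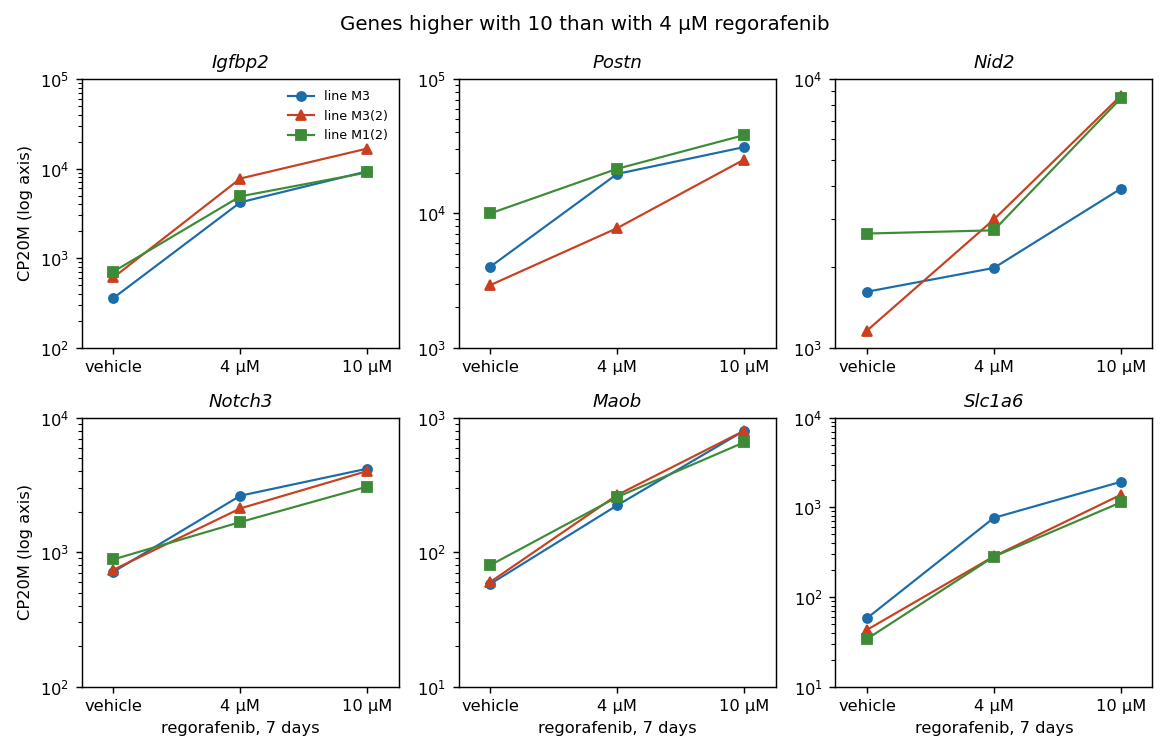
Levels of 6 genes in CP20M (y axis, log scale) in each of the 3 lines (colours) with vehicle, 4 µM and 10 µM regorafenib (x axis). Each gene is higher at 10 µM than at 4 µM in all 3 lines with no overlap between the doses, Maob from 223 to 266 up to 656 to 800.

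Matrix genes moved in both directions. Of 33 tested glycoproteins and proteoglycans of the matrix 4 rose (Nid2, Ogn, Postn and Fbn2) and 4 fell (Spp1, Lum, Tnxb and Lama4), with a median of 0.01 (against 0.999% higher and 3.31% lower of all genes, with rises 3, 3 and 2, falls 3, 3 and 4 without a line). Spp1 and Lum passed the filter only through the 4 µM libraries. Nid2, the basement membrane protein nidogen 2, was measured at 1616, 1158 and 2660 CP20M with vehicle, 1981, 3001 and 2734 at 4 µM and 3903, 8646 and 8462 at 10 µM (log2 fold change 1.37, SE 0.24, adjusted p = 0.00414), highest in M3(2) and M1(2) at 10 µM. Ogn, the small proteoglycan osteoglycin, went from 977, 994 and 1219 to 1823, 2414 and 3056 CP20M (log2 fold change 1.15, SE 0.22, adjusted p = 0.00554), and overlaps Cenpp on the other strand. Nov and Smoc2, which encode matricellular proteins, rose from 270, 133 and 528 to 841, 408 and 2234 CP20M and from 192, 445 and 230 to 646, 1177 and 751 CP20M.

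Spp1, the secreted phosphoprotein osteopontin, was measured at 6821, 2845 and 2036 CP20M with vehicle, 390, 392 and 246 at 4 µM and 159, 103 and 102 at 10 µM. Its log2 fold change was −1.35 ± 0.23 (SE, adjusted p = 0.00359) for 10 against 4 µM and −3.27 ± 0.23 (SE) for 4 µM against vehicle, and the difference between the steps was 1.92 ± 0.40 (SE, adjusted p = 0.0265). The larger part of its fall thus lay below 4 µM. Lum, the proteoglycan lumican, went the other way at the lower dose, with 189, 178 and 61 CP20M with vehicle, 347, 284 and 251 at 4 µM and 121, 126 and 88 at 10 µM (log2 fold change −1.25, SE 0.31, adjusted p = 0.0184, for 10 against 4 µM). Tnxb, tenascin X, went from 681, 735 and 646 to 270, 387 and 417 CP20M, without overlap, and Lama4, a laminin chain of vessel basement membranes, from 1078, 3496 and 2645 to 896, 1056 and 2002 CP20M. Fn1, fibronectin, and Thbs1, thrombospondin 1, were among the most abundant transcripts and were not called. Fn1 had 115799, 115031 and 70938 CP20M at 4 µM and 103536, 88188 and 94928 CP20M at 10 µM (95% interval −0.31 to 0.23 of the log2 fold change) and Thbs1 221045, 174980 and 145247 CP20M at 4 µM and 163689, 156298 and 141915 CP20M at 10 µM (95% interval −0.44 to 0.02).

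Among 18 collagens tested, Col12a1 rose and Col6a3, Col3a1 and Col18a1 fell, with a median of 0.07 (against 0.999% higher and 3.31% lower of all genes, with rises 1, 1 and 0, falls 0, 1 and 1 without a line). Over the 6 libraries alone none of the 18 was called. Col12a1, a collagen that binds to the surface of fibrils, was measured at 35294, 27330 and 19593 CP20M with vehicle, 61465, 47297 and 31242 at 4 µM and 81490, 70866 and 54228 at 10 µM (log2 fold change 0.59, SE 0.11, adjusted p = 0.00481). Col3a1, the fibrillar collagen of distensible tissue, went from 9964, 5536 and 8459 to 4467, 3477 and 7022 CP20M (log2 fold change −0.70, SE 0.15, adjusted p = 0.0109), and Col6a3, a chain of type VI collagen, from 9865, 3782 and 6661 to 3026, 1368 and 5136 CP20M (log2 fold change −1.18, SE 0.36, adjusted p = 0.0465). Col18a1, which yields endostatin, went from 4177, 4932 and 10183 to 3328, 2072 and 7720 CP20M. In the list of 18 enzymes and chaperones of matrix maturation, Adamts2, which trims procollagen, rose from 1751, 1410 and 1597 to 2258, 2794 and 2566 CP20M (log2 fold change 0.67, SE 0.16, adjusted p = 0.017), and P4ha3, a prolyl hydroxylase subunit, fell from 915, 1078 and 878 to 499, 741 and 601 CP20M (log2 fold change −0.64, SE 0.11, adjusted p = 0.00436), the only calls of the list (against 0.999% higher and 3.31% lower of all genes, with rises 1, 0 and 0, falls 0, 1 and 0 without a line). P4ha3 followed the endothelial markers at an r of 0.9. Lox and Serpinh1 were not called, with log2 fold changes of 0.08 ± 0.10 and 0.12 ± 0.08 (SE).

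Of 21 tested matrix proteases and their inhibitors, 6 fell and none rose, with a median of −0.34, against 3.31% lower of all genes. Timp1, an inhibitor of matrix metalloproteinases, was measured at 3333, 3542 and 2702 CP20M with vehicle, 1580, 1640 and 1315 at 4 µM and 743, 676 and 701 at 10 µM (log2 fold change −1.07, SE 0.10, adjusted p = 0.000169, for 10 against 4 µM). Its log2 fold change was −1.07 ± 0.10 (SE) for 4 µM against vehicle, about the same as for the upper step. It lies within Syn1, on the other strand. Plaur, the urokinase receptor, went from 811, 1640 and 915 to 449, 497 and 452 CP20M (log2 fold change −1.17, SE 0.15, adjusted p = 0.000963), Adam12, a membrane metalloproteinase, from 1425, 726 and 708 to 560, 285 and 462 CP20M, and Mmp3, stromelysin 1, from 156, 279 and 421 to 25, 131 and 243 CP20M. Of the 21 genes, 5 were called lower without M3(2), 5 without M1(2), 4 without M3 and 4 over the 6 libraries alone. Of the 6, Mmp3 and another passed the filter only through the 4 µM libraries.

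Of 29 tested integrins and other adhesion receptors, 4 fell (against 3.31% of all genes, with falls 3, 2 and 2 without a line) and none rose, with a median of −0.22. Itgb3, the beta chain of the vitronectin receptor, went from 293, 797 and 408 to 130, 243 and 197 CP20M (log2 fold change −1.23, SE 0.13, adjusted p = 0.00026), without overlap. Vcam1, the ligand of integrin alpha 4 beta 1, went from 2545, 1857 and 2215 to 1457, 1324 and 1439 CP20M (log2 fold change −0.63, SE 0.09, adjusted p = 0.00131). Itga3, the laminin receptor chain, and Cdh13, a cadherin anchored in the membrane by a lipid, fell by 0.85 and 0.64 on the log2 scale, and both were highest at 4 µM in M3(2). Of the 29 genes 3 followed the endothelial markers at an r of 0.9, Itgb3 and Cdh13 among them, and Itgb3 passed the filter only through the 4 µM libraries.

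Of 24 tested contractile and myofibroblast genes, Postn, Itga8 and Lmod1 rose and Acta1 fell, with a median of 0.12, against 0.999% higher and 3.31% lower over all genes (rises 3, 0 and 2, falls 0, 1 and 1 without a line). Postn, the matricellular protein periostin, which the list shares with that of matrix glycoproteins, was measured at 4002, 2923 and 9984 CP20M with vehicle, 19650, 7760 and 21444 at 4 µM and 31095, 25104 and 38169 at 10 µM (log2 fold change 1.06, SE 0.21, adjusted p = 0.00723). Itga8, the integrin chain that pairs with beta 1 to bind nephronectin, was measured at 242, 426 and 394 CP20M with vehicle, 1309, 1381 and 1142 at 4 µM and 2463, 2931 and 1906 at 10 µM (log2 fold change 0.90, SE 0.18, adjusted p = 0.00792). Both were higher at 10 µM than at 4 µM in every line with no overlap. Lmod1, a nucleator of actin filaments in smooth muscle, went from 3727, 2116 and 2270 to 4553, 3938 and 3580 CP20M. Acta1, the skeletal muscle actin, went from 2658, 678 and 605 to 506, 164 and 243 CP20M (log2 fold change −1.84, SE 0.34, adjusted p = 0.00516). Actg2, the enteric smooth muscle actin and the most abundant smooth muscle marker, was not called, with 26672, 16263 and 18692 CP20M at 4 µM and 23764, 19422 and 21440 CP20M at 10 µM.

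Notch3, a receptor of mural cells and the most abundant pericyte marker, was measured at 715, 740 and 884 CP20M with vehicle, 2632, 2118 and 1676 at 4 µM and 4182, 4015 and 3074 at 10 µM (log2 fold change 0.82, SE 0.14, adjusted p = 0.00404). Its antisense neighbour Gm17276, named after its value was seen, was called higher as well, and the reads of the pair cannot be told apart without strand. The pericyte list summed to 3513, 2651 and 2244 CP20M at 4 µM and 4587, 4373 and 3524 CP20M at 10 µM, most of it Notch3. Cspg4, the NG2 proteoglycan, fell from 845, 441 and 494 to 378, 315 and 413 CP20M. Of the 2 tested pericyte markers 1 rose and 1 fell, against 0.999% higher and 3.31% lower of all genes (rises 1, 0 and 1, falls 0, 1 and 0 without a line). Rgs5, Kcnj8 and Abcc9 stayed at or below 39 CP20M in the 6 libraries and none was at 0 in all of them. The smooth muscle list summed to 51180, 33778 and 35827 CP20M at 4 µM and 47888, 37322 and 41330 CP20M at 10 µM.

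Secreted modulators of BMP, activin, Wnt and IGF signalling changed in both directions. Of 23 tested genes of the TGF-beta and BMP pathway, Nog and Tgfb2 rose and 5 genes fell, among them Fst, Bmp4, Id1 and Tgfb1, with a median of −0.25 (against 0.999% higher and 3.31% lower of all genes, with rises 3, 1 and 2, falls 7, 3 and 1 without a line). Nog, the BMP antagonist noggin, was measured at 17, 69 and 26 CP20M with vehicle, 200, 459 and 312 at 4 µM and 573, 958 and 438 at 10 µM (log2 fold change 0.97, SE 0.18, adjusted p = 0.0054, for 10 against 4 µM). It was higher at each dose in every line, and the ranges of the doses overlapped. Fst, follistatin, which binds activin, was measured at 297, 1374 and 329 CP20M with vehicle, 477, 4463 and 1251 at 4 µM and 270, 1389 and 391 at 10 µM (log2 fold change −1.36, SE 0.30, adjusted p = 0.0113), highest in M3(2) at each dose. Bmp4 went from 404, 2306 and 949 to 284, 1049 and 357 CP20M. Of the 23 genes 4 followed the endothelial markers at an r of 0.9, among them Fst.

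Of 9 tested genes of the Wnt pathway, Nkd2 rose and Frzb fell, with a median of −0.21 (against 0.999% higher and 3.31% lower of all genes, with rises 0, 0 and 0, falls 1, 1 and 1 without a line). Frzb, a secreted Wnt antagonist, was measured at 388, 395 and 401 CP20M with vehicle, 309, 512 and 460 at 4 µM and 114, 168 and 185 at 10 µM (log2 fold change −1.34, SE 0.19, adjusted p = 0.00142), close to the vehicle level at 4 µM and lower in all 3 lines at 10 µM. It passed the filter only through the 4 µM libraries. With no filter 2 of 25 genes of the list were called lower and 1 higher, against 607 and 139 of 26498 over all genes. Nkd2, an inhibitor that binds Dishevelled, went from 473, 301 and 896 to 656, 692 and 1075 CP20M (log2 fold change 0.62, SE 0.14, adjusted p = 0.0144). Wnt5a and Dkk3 did not reach the fold threshold, with log2 fold changes of 0.38 ± 0.09 and 0.46 ± 0.12 (SE).

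In the IGF system, Igfbp2 rose and Igfbp4 and Igf1 fell among 11 tested, with a median of −0.03 (against 0.999% higher and 3.31% lower of all genes, with rises 0, 0 and 1, falls 2, 1 and 1 without a line). Igfbp2, a binding protein that holds IGFs in the medium, was measured at 359, 610 and 708 CP20M with vehicle, 4198, 7738 and 4899 at 4 µM and 9310, 16705 and 9041 at 10 µM. Its log2 fold change was 1.04 ± 0.22 (SE, adjusted p = 0.00872) for 10 against 4 µM and 3.29 ± 0.22 (SE) for 4 µM against vehicle, and the difference between the steps was −2.24 ± 0.37 (SE, adjusted p = 0.0128). Igf1, the growth factor itself, was measured at 1734, 1387 and 1316 CP20M with vehicle, 2619, 2065 and 1788 at 4 µM and 1576, 1198 and 1140 at 10 µM (log2 fold change −0.71, SE 0.09, adjusted p = 0.000607), higher at 4 µM than with vehicle in every line and lower again at 10 µM. Igfbp4, another binding protein, which passed the filter only through the 4 µM libraries, went from 551, 423 and 242 to 316, 175 and 114 CP20M, and Igf2r, the scavenging IGF2 receptor, was not called, with 16865, 15535 and 13323 CP20M at 4 µM and 20562, 17742 and 18820 CP20M at 10 µM.

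Lipid genes fell where they changed. Of 25 tested genes of cholesterol synthesis and uptake, 5 fell (against 3.31% of all genes, with falls 5, 3 and 2 without a line) and none rose, with a median of −0.28, and 24 had a fold change below 0. Of the 5, 1 passed the filter only through the 4 µM libraries. By adjusted p alone 12 of the 25 were lower, against 7.27% of all genes. Stard4, which carries cholesterol between membranes, went from 433, 1054 and 653 to 247, 315 and 294 CP20M (log2 fold change −1.18, SE 0.15, adjusted p = 0.000961). Insig1, which retains the sterol-regulated transcription factors in the endoplasmic reticulum, went from 1169, 1821 and 2213 to 844, 963 and 1176 CP20M (log2 fold change −0.76, SE 0.11, adjusted p = 0.00151). Fdps, an enzyme of the pathway, fell by 0.65 on the log2 scale. The list median was −0.35, −0.36 and −0.34 in the 3 lines. CCAAT was in 16 of the 20 promoters of these genes (80.0%), against 34.1% of the promoters of all genes tested. CACGTG was in 5 (25%), against 8.84%, and TCACNCCAC in 1 (5%), against 1.03%. The list of the unfolded protein response, with no called gene, had CCAAT in 16 of 17 (94.1%). Gramd1a, the cholesterol transfer protein to which autogramin-2 binds, was not called, with 907, 1403 and 949 CP20M at 4 µM and 981, 1116 and 1093 CP20M at 10 µM (95% interval −0.24 to 0.23 of the log2 fold change).

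Of 25 tested genes of fatty acid handling and PPAR targets, Fabp4, Angptl4, Fabp5 and Lpl fell (against 3.31% of all genes, with falls 4, 2 and 2 without a line) and none rose, with a median of −0.18. Fabp4 was the 1 gene of the list that followed the endothelial markers at an r of 0.9. Fabp4 and Angptl4 passed the filter on low values only through the 4 µM libraries. With no filter 5 of 33 genes of the list were called lower, against 607 of 26498 over all genes. Angptl4, a secreted inhibitor of lipoprotein lipase, was measured at 522, 582 and 656 CP20M with vehicle, 169, 408 and 217 at 4 µM and 66, 94 and 61 at 10 µM (log2 fold change −1.53, SE 0.24, adjusted p = 0.00248), lower at each dose in all lines. Fabp4, a fatty acid binding protein of adipocytes and of capillary endothelium, went from 92, 1001 and 378 to 35, 210 and 37 CP20M (log2 fold change −1.99, SE 0.30, adjusted p = 0.00189) and was highest in M3(2). Lpl, lipoprotein lipase, went from 460, 501 and 276 to 377, 236 and 156 CP20M and Fabp5 from 537, 1392 and 1365 to 432, 532 and 792 CP20M.

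Txnip had the smallest adjusted p of all genes tested. This arrestin-like protein, which binds thioredoxin and limits glucose uptake and whose transcription follows glucose through MondoA, was measured at 2398, 2541 and 2256 CP20M with vehicle, 1799, 2080 and 1674 at 4 µM and 948, 1002 and 943 at 10 µM (log2 fold change −0.92, SE 0.06, adjusted p = 1.04e-05). The lines were close to each other at both doses and the groups did not overlap. Gm15441, which overlaps Txnip on the other strand and is named after its value was seen, had the next smallest adjusted p, with 642, 689 and 483 CP20M at 4 µM and 303, 303 and 284 CP20M at 10 µM. Klf10, another target of MondoA, fell from 262, 1080 and 476 to 252, 224 and 219 CP20M (log2 fold change −1.09, SE 0.31, adjusted p = 0.0341), and Prkaa2, a catalytic subunit of AMPK, rose from 694, 784 and 476 to 1190, 1137 and 832 CP20M (log2 fold change 0.69, SE 0.12, adjusted p = 0.00384). The 11 tested genes of this list had a median of −0.21 (against 0.999% higher and 3.31% lower of all genes, with rises 1, 1 and 1, falls 3, 1 and 1 without a line). Of 28 tested genes of hypoxia and glycolysis, Eno2, a neuronal enolase, rose from 425, 428 and 599 to 693, 1002 and 713 CP20M and Ndrg1 fell from 530, 1538 and 1253 to 373, 376 and 699 CP20M, with a median of −0.17 (against 0.999% higher and 3.31% lower of all genes, with rises 0, 0 and 1, falls 1, 0 and 0 without a line). Pkm and Eno1, the most abundant of them, were not called, with log2 fold changes of −0.25 ± 0.08 and −0.32 ± 0.07 (SE).

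Of 13 transcripts of the mitochondrial genome 7 were tested, of which 4 rose (mt-Nd2, mt-Nd4, mt-Nd1 and mt-Nd5, all subunits of complex I) and none fell, with a median of 0.62, against 0.999% higher and a median of −0.02 over all genes. mt-Nd2 was measured at 1483, 1644 and 1860 CP20M with vehicle, 2326, 2638 and 1610 at 4 µM and 3167, 3959 and 4976 at 10 µM (log2 fold change 0.88, SE 0.18, adjusted p = 0.00759), and mt-Nd1 went from 6805, 7815 and 5840 to 9204, 10580 and 12877 CP20M (log2 fold change 0.67, SE 0.13, adjusted p = 0.0057). The doses did not overlap in any of the 4, as in 8.34% of all genes tested. The rise was largest in M1(2), where the list median was 1.19, against 0.43 in M3 and 0.32 in M3(2), and 0 of the 7 were called without M1(2), over the 6 libraries alone or without the block of line.

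Of 21 tested NRF2 antioxidant genes, Nqo1 fell (against 3.31% of all genes, with falls 2, 2 and 0 without a line) and none rose, with a median of −0.26. By adjusted p alone 9 of the 21 were lower, against 7.27% of all genes. Nqo1, a quinone reductase, was measured at 2157, 3701 and 2212 CP20M with vehicle, 491, 2651 and 1156 at 4 µM and 294, 590 and 233 at 10 µM (log2 fold change −1.68, SE 0.27, adjusted p = 0.00247), in each line lower at 4 µM than with vehicle and lower again at 10 µM. Fth1 and Ftl1, the ferritin chains, were not called, with log2 fold changes of −0.37 ± 0.08 and −0.03 ± 0.08 (SE). Among 14 tested detoxification enzymes and drug transporters, Cyp1b1 and its regulator Ahr, the aryl hydrocarbon receptor, fell (against 3.31% of all genes, with falls 1, 1 and 1 without a line) and none rose, with a median of −0.23. Cyp1b1, a cytochrome P450 induced through Ahr, went from 376, 2355 and 1024 to 121, 499 and 427 CP20M (log2 fold change −1.64, SE 0.38, adjusted p = 0.0159), and Ahr from 543, 990 and 767 to 370, 452 and 577 CP20M.

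Of 12 tested cytokines, chemokines and related genes, 4 fell, among them Ccl2, Ccl7 and Cxcl16, and none rose, with a median of −0.39 (against 3.31% of all genes, with falls 5, 2 and 2 without a line). Of the 4, 3 passed the filter on low values only through the 4 µM libraries, Ccl2 and Cxcl16 among them. With no filter 6 of 31 genes of the list were called lower, against 607 of 26498 over all genes. Ccl2, which attracts monocytes, was measured at 565, 1253 and 1603 CP20M with vehicle, 423, 1116 and 1285 at 4 µM and 163, 185 and 504 at 10 µM (log2 fold change −1.69, SE 0.23, adjusted p = 0.00103), and Ccl7, a chemokine encoded beside it, went from 574, 551 and 835 to 235, 243 and 351 CP20M (log2 fold change −1.18, SE 0.13, adjusted p = 0.000317). Cxcl16, a membrane-bound chemokine, fell by 0.95 on the log2 scale. Of 19 tested interferon-stimulated genes 1 was called, Slfn2, against 3.31% lower of all genes, and the median was −0.29. Slfn2 passed the filter only through the 4 µM libraries. With no filter 5 of 37 genes of the list were called lower, against 607 of 26498 over all genes. Slfn2, a schlafen family protein, was measured at 495, 340 and 287 CP20M with vehicle, 218, 324 and 221 at 4 µM and 63, 31 and 49 at 10 µM (log2 fold change −2.03, SE 0.20, adjusted p = 0.000169), and all 3 lines fell to 63 CP20M or less at 10 µM. It overlaps Gm20234 on the other strand. B2m, H2-K1 and H2-D1, of the class I histocompatibility complex, were not called, with log2 fold changes of −0.10 ± 0.06, −0.48 ± 0.12 and −0.36 ± 0.10 (SE).

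Of 28 tested targets of ATF4 and the integrated stress response, 0 rose and 0 fell, against 0.999% higher and 3.31% lower of all genes. A count of 0 in 28 lies near these shares. The median was 0.10, with fold changes from −0.57 to 0.58 (rises 1, 0 and 1, falls 0, 1 and 0 without a line). By adjusted p alone 6 of the 28 were higher and 1 lower, against 5.73% and 7.27% of all genes, and with edgeR, DESeq2 or limma-voom 2 were called higher. Slc3a2, the heavy chain of amino acid transporters, was just below the fold threshold, with 3033, 2835 and 3018 CP20M at 4 µM and 4672, 4350 and 4217 CP20M at 10 µM (log2 fold change 0.57, SE 0.06, adjusted p = 0.000169), higher in all lines with no overlap. Of 19 chaperones and targets of the unfolded protein response, 14 genes of heat shock and proteotoxic stress, 19 regulators of apoptosis and 13 targets of YAP and TEAD, 0 were called in each list, with medians of −0.11, 0.01, −0.04 and 0.09. Over all genes 4.31% were called, and a count of 0 in lists of these sizes lies near that share. Without M3 1 gene of heat shock was called higher and 1 of apoptosis lower. Hspa5, the chaperone BiP, had a log2 fold change of −0.11 ± 0.06, Hspa8, a cytosolic chaperone, one of 0.04 ± 0.06, Mcl1, which opposes apoptosis, one of −0.02 ± 0.07 and Axl, a receptor kinase and YAP target, one of 0.01 ± 0.08 (SE).

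Of 41 tested genes of lysosomes and autophagy, Rragd rose and Ctsh fell, with a median of 0.02 (against 0.999% higher and 3.31% lower of all genes, with rises 1, 1 and 1, falls 0, 0 and 0 without a line). Both shares, of 1 in 41 genes, lie near those over all genes. Rragd, a GTPase that brings the kinase mTORC1 to the lysosome, went from 1332, 1667 and 1849 to 2185, 2643 and 2752 CP20M (log2 fold change 0.64, SE 0.09, adjusted p = 0.00133), without overlap, and Ctsh, cathepsin H, from 597, 813 and 560 to 423, 397 and 417 CP20M (log2 fold change −0.63, SE 0.16, adjusted p = 0.0227). Ctsd and Psap, the most abundant genes of the list, were not called, with log2 fold changes of 0.11 ± 0.07 and 0.06 ± 0.06 (SE). Among 20 genes that respond to FOXO and AKT, Klf2 fell from 123, 474 and 232 to 66, 94 and 67 CP20M (log2 fold change −1.46, SE 0.22, adjusted p = 0.00207) and none rose, with a median of −0.05 (against 3.31% of all genes, with falls 1, 1 and 0 without a line). Klf2 passed the filter only through the 4 µM libraries. Among 26 genes of ribosome biogenesis, Odc1, the first enzyme of polyamine synthesis, and Dkc1, the pseudouridine synthase dyskerin, fell by 0.65 and 0.62 on the log2 scale and none rose, with a median of −0.14 (against 3.31% of all genes, with falls 2, 0 and 0 without a line). Odc1 followed the endothelial markers at an r of 0.9.

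Whether the upper step differed from the lower one was tested in the same fit, as the difference between the change from 4 to 10 µM and that from 0 to 4 µM, steps of 6 and 4 µM that share the libraries with 4 µM. The difference passed for 259 of 10208 genes (2.54%), 184 with a lower (1.80%) and 75 with a higher value (0.735%) at the upper step. Of the 6 tested endothelial markers 5 passed, all lower, with a median difference of −2.89. Their median log2 fold change was 1.27 for 4 µM against vehicle, where 5 of the 6 were called higher, against 684 of 10208 genes called (6.70%), 446 of them higher (4.37%) and 238 lower (2.33%). Pecam1 had a log2 fold change of 1.30 ± 0.29 (SE) at the lower step, and the difference between the steps was −2.77 ± 0.50 (SE, adjusted p = 0.0156).

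Plvap, Stab1 and Angpt2 had differences of −3.30 ± 0.55 (SE, adjusted p = 0.0128), −3.95 ± 0.85 (SE, adjusted p = 0.0277) and −3.35 ± 0.64 (SE, adjusted p = 0.0188). These genes, and Fst below, were named for their falls from 4 to 10 µM. The difference uses the same 4 µM libraries, so a choice by the fall favours a negative value, and their p-values are no independent support. Of the mitosis and replication lists, with 17 and 21 genes tested, 0 genes passed, against 2.54% of all genes. A count of 0 in lists of these sizes lies near that share. The medians of the difference were −0.21 and −0.13. For Mki67 the difference was −0.77 ± 0.62 (SE, adjusted p = 0.586), so the difference between the 2 steps, which are unequal in dose, was not past the test. Of 23 genes of the TGF-beta and BMP pathway 10 had a lower and 1 a higher value at the upper step, against 1.80% and 0.735% of all genes. Nog had a difference of −1.64 ± 0.31 (SE, adjusted p = 0.0188) and Fst one of −2.76 ± 0.51 (SE, adjusted p = 0.017). In the first the rise was smaller at the upper step, and in the second a rise at the lower step was followed by a fall. Igfbp2, Ptprz1, Adamts2, Tgfb2 and Nog rose by less at the upper step than at the lower, each past the test, and for Galnt16, Slc1a6, Maob, Postn and Notch3 the difference did not pass. The count of 259 fell to 79 without line M3(2), to 6 without M1(2) and to 0 without the block of line, where 594 genes had an unadjusted p under 0.05, and it was 389 with edgeR and 452 with DESeq2.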

How the data were processed

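RNA was sequenced from primary colon fibroblasts, and the authors deposited 1 table of normalised counts for the 19 fibroblast libraries. Per the labels and the study's methods, reads were trimmed with Trimmomatic 0.36, aligned to GRCm38 with STAR 2.5.3a and counted per gene with HTSeq 0.9.1. The deposited signal, CP20M, is the count scaled to a library sum of 20000000 and rounded up, so it keeps the depth. Whole reads could be recovered from its steps, with at least 99.6% of values above 0 returned exactly, and gave 7949937 to 12825870 reads per library. The strand setting of the counting is not given in the sources used here.

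All 15 libraries of lines M3, M3(2) and M1(2) (vehicle, 4 µM, 10 µM, 1 µM autogramin-2, and 4 µM with autogramin-2) were fitted with limma 3.58.1 in R 4.3.3 with a trended prior, on log2(CP20M + 20), with group and line as terms. The filter was 200 CP20M in at least 2 of the 6 libraries compared. The study derived each line from an individual mouse, and libraries of 1 line deviated together from their group means (mean correlation 0.73 over 30 pairs, lowest 0.62, against a mean of −0.39 between lines), so line was kept as a block. Reads of the 3 libraries of each of the 5 treatments differed between lines by more than sampling noise. With 3 lines per dose, standard errors, intervals and p-values use a spread pooled over the 15 libraries of the 5 treatments. They are not taken from the 3 within-line differences alone, and an interval need not cover the change of each line. For Mmrn1 the interval for 10 against 4 µM was −5.08 to −2.32 on the log2 scale. Its changes were −1.149 in M3, −5.507 in M3(2) and −4.445 in M1(2). Alternatives used edgeR 4.0.16, DESeq2 1.42.0 and limma-voom on the recovered reads. The scripts were tested on simulated data.

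The members, gene lists and markers were chosen with earlier results of these data known. Named genes are protein-coding and are the 12 largest rises and 12 largest falls with all lines in 1 direction, up to 4 of each pathway list (called first, then most abundant), a fixed set (among them Pdgfra, Pdgfrb, Fgfr1, Flt4, Mki67, Ccnb1, Cdkn1a, Fn1, Thbs1, Gramd1a, Spp1, Slfn2 and Angptl4) and the most abundant and undetected markers. Other members are named only to account for a count, after their values were seen. Gene positions and overlaps are from GENCODE M21, which held 52489 of the 52636 genes. Promoters were matched by symbol to RefSeq on GRCm38.p6 for 7605 of 10198 tested symbols, and the 50 bases after the start were left out. The organoid libraries were not used here. Some genes that the rule names are not reported here.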

Additional observations from a re-analysis of the deposited data

How the results depend on the processing

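The 440 calls for 10 against 4 µM became 746 with no filter on low values (of 26498 genes), 133 with a filter of 1000 CP20M (of 4599), 155 over the 6 libraries alone with the block of line and 1327 without the fold threshold. Without the block of line, which pairs the doses within a line, the count was 42. It lay between 163 and 539 when a line was left out, and between 340 and 514 with a pseudocount of 2 or 100 CP20M, all 19 fibroblast libraries, TMM scaling, median centring, edgeR, DESeq2 or limma-voom. The 259 calls for the difference between the steps became 114 with the filter of 1000 CP20M, 392 over all 19 libraries, 389 with edgeR and 452 with DESeq2. Without the block of line the count was 0, and with a line left out it was between 6 and 300. With fewer lines, and with fewer genes or libraries in the fit, the tests hold fewer degrees of freedom or genes, and no further cause was tested. Of 165 tested genes chosen by the rule for named genes 99 were called. Agtr1a, Frzb, Galnt16, Lrrn1, Maob, Slfn2, Timp1 and Txnip kept their call under every alternative in which they were tested, and 27 genes did when the fit without the block was set aside. None of the 440 genes changed direction under an alternative in which it was tested.

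Reversals occurred among genes that were not called, with fold changes near 0. Canx was at 0.00115 with TMM scaling, 0.00713 with median centring, 0.013 with edgeR, 0.00773 with DESeq2 and 0.0127 with limma-voom. Gramd1a was at 0.000571, 0.00662, 0.000357 and 0.0077 with TMM scaling, median centring, edgeR and limma-voom. Over all 19 libraries Gramd1a was at 0.00666, Actg2 at −2.63e-05 and Crim1 at −0.0459, and with edgeR Mcl1 was at 0.00104. With a line left out the log2 fold changes ranged from −0.0703 to 0.0873 for Axl, from −0.329 to 0.0453 for Bax, from −0.0291 to 0.0833 for Bcl2l1, from −0.0441 to 0.0678 for Canx, from −0.139 to 0.18 for Col1a1, from −0.0514 to 0.0704 for Crim1, from −0.272 to 0.129 for Fn1, from −0.124 to 0.0271 for Ftl1, from −0.107 to 0.155 for Gramd1a, from −0.239 to 0.0587 for Grem1, from −0.0332 to 0.0984 for Hspa8, from −0.0464 to 0.0958 for Klf6, from −0.00951 to 0.199 for Lox, from −0.0965 to 0.0574 for Mcl1, from −0.204 to 0.0419 for Pdgfrb, from −0.0174 to 0.117 for Psap and from −0.0175 to 0.217 for Serpinh1. The cause was not tested.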
